A study of Oryctolagus cuniculus with 16 samples.

Results

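Tissue factor (F3), tissue factor pathway inhibitor (TFPI) and thrombomodulin (THBD) were followed in rabbit vein grafts through every array probe assigned to them by RefSeq transcript. F3 was represented by 2 probes, A_04_P000111 and A_04_P085232, TFPI by 4 probes, A_04_P101922, A_04_P002007, A_04_P002008 and A_04_P002006, and THBD by 1 probe, A_04_P002571, which was printed as 5 spots. They are 3 of the 2127 genes that could be named. Their probes were 7 of the 43603 gene probes on the array and 7 of the 35762 probes tested, and all 7 were well above background and unsaturated on all 16 arrays. In the order given, the probes of a gene are called probe 1 to probe 4, from the brightest to the dimmest.

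The samples were vein tissue of male rabbits (Oryctolagus cuniculus) without any genetic change named in the labels. Grafts were removed on day 1 after surgery (6 arrays) or on day 7 (6 arrays), and the control group had sham surgery (4 arrays). The strain and age of the animals and whether RNA was pooled are not given in the sources used here. The study asked which genes accompany vein graft restenosis, the renewed narrowing of a vein placed into an artery.

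F3 is the membrane protein that starts the clotting cascade in blood. It binds factor VII, and the complex activates factor X, which leads to thrombin. In the vessel wall it is known from the adventitia, from smooth muscle cells and from activated monocytes. TFPI, made largely by endothelium, blocks the complex of F3 and factor VII together with activated factor X. THBD sits on the endothelial surface and binds thrombin, which then activates protein C instead of cleaving fibrinogen.

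F3 and TFPI had the same calls: both fell on day 1, were higher on day 7 than on day 1, and were not called on day 7 against sham. On day 7 the F3 samples lay within or just below the range of sham and the TFPI samples above it. THBD on day 1 differed from sham by less than the threshold and fell by day 7.

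The arrays of day 1 and of day 7 did not represent 6 independent samples each. In 3 scans, the same 2 positions held day 1 arrays and the same 2 positions held day 7 arrays, and arrays of one position differed between scans by less than the spread between spots of one probe. These arrays were averaged and counted as 1 sample, so that n = 2 for day 1, n = 2 for day 7 and n = 4 for sham. Nothing in the labels says that the samples came from separate animals, so the p-values measure the spread between these samples, which may be technical. All 4 sham arrays were in a scan of their own, so that scan and surgery cannot be told apart wherever sham is the reference, whereas each of the other 3 scans held day 1 and day 7 arrays together. In these scans day 1 arrays were always at positions 1 and 2 and day 7 arrays at positions 3 and 4. Position and day therefore cannot be told apart in day 7 against day 1. The sham samples fell into 2 pairs, 1 with 2 and 3 with 4: the median absolute difference between 2 arrays over all probes was 0.125 to 0.156 on the log2 scale within a pair and 0.444 to 0.466 between pairs. Arrays of the 2 samples of a graft group differed by 0.116 to 0.126 on day 1 and by 0.163 to 0.168 on day 7. These values are near those within a sham pair, so n may be as low as 1 for each graft group and 2 for sham. The limma and permutation p-values treat the 2, 2 and 4 samples as independent and may be too small. The arrays detected 32973 to 36319 probes each well above background, and their number limits the precision.

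A probe was called when its limma adjusted p was below 0.05 and its absolute log2 fold change at least 1. By this rule 49.8% of all tested probes were called on day 1 against sham, 32.9% on day 7 against sham and 40.0% on day 7 against day 1, and the members are to be read against these shares. The median log2 fold change over all probes was 0.12, 0.04 and -0.03. Of the 7 member probes, 6 were called on day 1 against sham, all lower, where 24.6% of all probes were called lower and 25.2% higher. On day 7 against sham 1 of 7 was called, lower, beside 15.4% of all probes lower and 17.5% higher. On day 7 against day 1 all 7 were called, 6 of them higher and 1 lower, beside 21.1% of all probes higher and 18.9% lower. The probes of one gene share its transcript and are not independent of each other. With each array scaled to its 75th percentile, the median over all probes was 0.47 on day 1 against sham and -0.35 on day 7 against day 1. The calls among all probes were then split into 12508 higher and 7037 lower in place of 9017 and 8799 for day 1 against sham, and into 5940 higher and 11503 lower in place of 7539 and 6741 for day 7 against day 1.

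**Figure D1:**
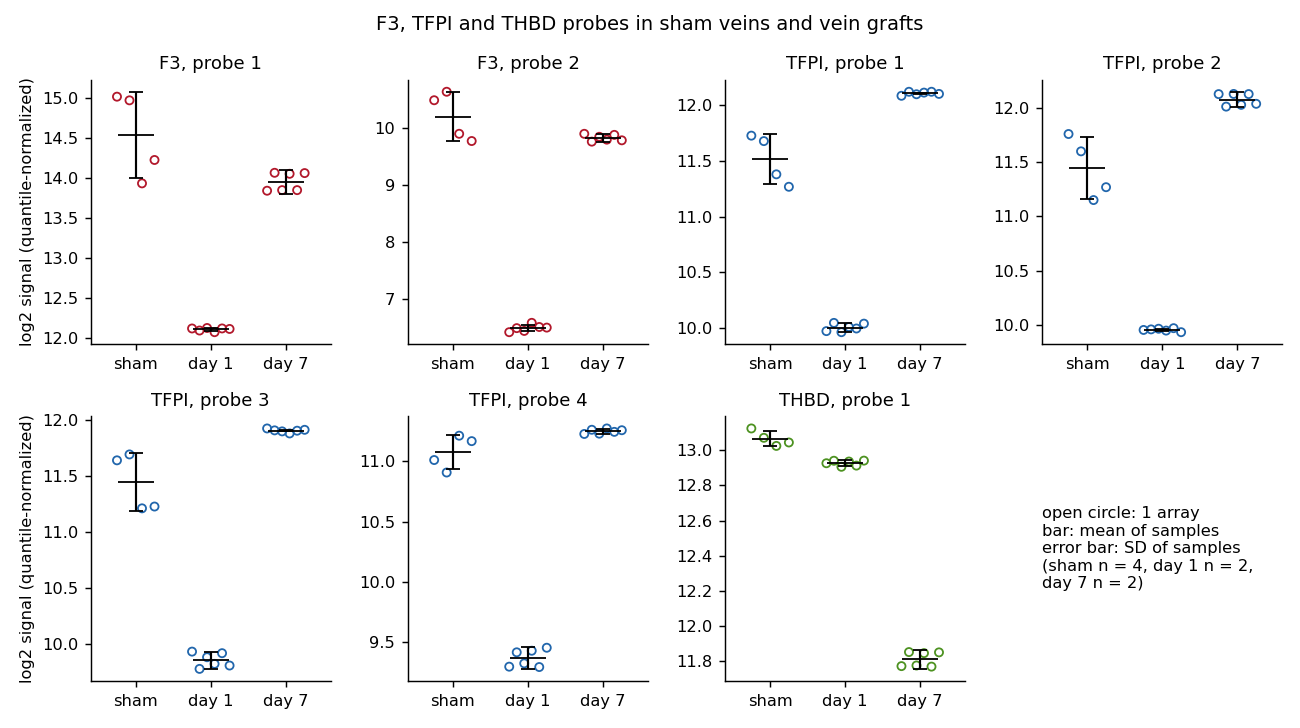
Quantile-normalized log2 signal (vertical axis, its range set for each probe) of the 7 probes of F3, TFPI and THBD in sham veins and in vein grafts of day 1 and day 7. Open circles are arrays, and bars and error bars are mean and SD over samples (sham n = 4, day 1 n = 2, day 7 n = 2). F3 probe 1 averaged 14.54, 12.11 and 13.96 and THBD 13.07, 12.93 and 11.81 in this order of groups.

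F3 was lower in both day 1 samples than in every sham sample with both of its probes. F3 probe 1 read a log2 signal of 15.02, 14.97, 13.94 and 14.23 in sham samples 1 to 4, 12.12 and 12.10 in the day 1 samples, and 13.85 and 14.06 in the day 7 samples. The sham samples themselves spanned more than 1 log2 unit, with samples 1 and 2 high and samples 3 and 4 low. Of the day 7 samples, 1 lay just below the lowest sham sample and 1 within the sham range, and both lay above both day 1 samples. Group means were 14.54 ± 0.54 (SD, n = 4) for sham, 12.11 ± 0.02 (SD, n = 2) for day 1 and 13.96 ± 0.15 (SD, n = 2) for day 7.

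On day 1 F3 probe 1 fell by 2.43 on the log2 scale (SE 0.32, limma adjusted p = 3.48e-04), a 5.39-fold decrease. From day 1 to day 7 it rose by 1.85 (SE 0.37, limma adjusted p = 0.00406). Day 7 against sham gave a log2 fold change of -0.58 (95% interval -1.34 to 0.18, limma adjusted p = 0.156), which was not called. This last value depended on the sham pair: it was -1.04 (limma adjusted p = 2.21e-04) without sham samples 3 and 4 and -0.13 (limma adjusted p = 0.406) without sham samples 1 and 2. Within the 3 scans that held both graft groups, day 7 against day 1 was 1.85, 1.85 and 1.84. These scans held arrays counted as the same samples, so the 3 values are not independent repeats.

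F3 probe 2, the dimmer of the pair, followed the same course with a larger fall. Its log2 signal was 10.50, 10.64, 9.90 and 9.78 in sham samples 1 to 4, 6.45 and 6.52 on day 1, and 9.88 and 9.79 on day 7. The day 1 samples lay more than 3 log2 units below the lowest sham sample, and the day 7 samples lay among the sham samples. It fell by 3.72 on the log2 scale on day 1 (SE 0.26, limma adjusted p = 1.21e-05), and from day 1 to day 7 it rose by 3.35 (SE 0.30, limma adjusted p = 7.94e-05). Day 7 against sham was -0.37 (95% interval -0.98 to 0.24, limma adjusted p = 0.247).

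The distance between the F3 probes within a sample shows that they did not change by the same amount. Probe 1 minus probe 2 was 4.33 ± 0.22 (SD, n = 4) in sham, 5.62 ± 0.07 (SD, n = 2) on day 1 and 4.12 ± 0.22 (SD, n = 2) on day 7, and the day 1 samples did not overlap the others. On 3 day 1 arrays, all of one position and averaged as day 1 sample 1, the scanner software marked the local background around the spot of probe 2 as non-uniform. Their local background reached 6274, beside a median of 22.0 over all arrays. The other day 1 sample had no such mark and read 6.52 beside 6.45.

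**Figure D2:**
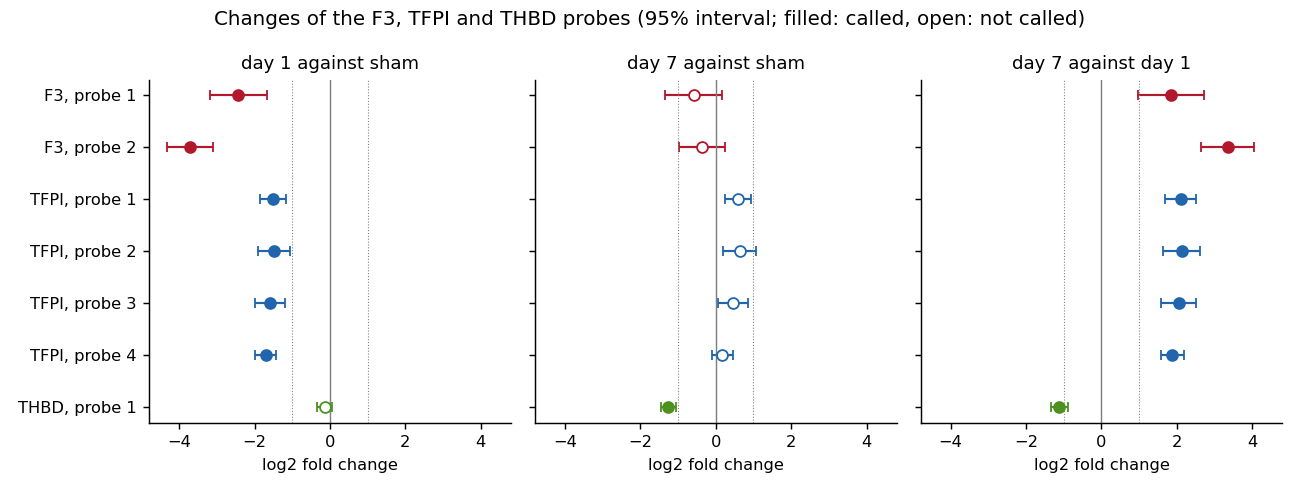
Log2 fold change (horizontal axis) of each F3, TFPI and THBD probe in the 3 comparisons, with its 95% interval from limma. Filled symbols were called and open symbols were not, and dotted lines mark a log2 fold change of 1 in either direction. All 4 TFPI probes moved from between -1.71 and -1.49 on day 1 to between 0.17 and 0.63 on day 7 against sham.

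TFPI, the inhibitor of the F3 complex, fell on day 1 with all 4 of its probes. TFPI probe 1 read a log2 signal of 11.73, 11.68, 11.38 and 11.27 in sham samples 1 to 4, 9.98 and 10.03 on day 1, and 12.10 and 12.11 on day 7. Both day 1 samples were below and both day 7 samples above every sham sample. The share of all probes separated in this way was not counted. Group means were 11.51 ± 0.22 (SD, n = 4), 10.01 ± 0.04 (SD, n = 2) and 12.11 ± 0.01 (SD, n = 2) for sham, day 1 and day 7. TFPI probe 1 fell by 1.51 on day 1 (SE 0.15, limma adjusted p = 7.51e-05) and rose by 2.10 from day 1 to day 7 (SE 0.17, limma adjusted p = 5.61e-05). Within the 3 scans, which are not independent repeats, the latter was 2.09, 2.12 and 2.09.

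On day 7 TFPI probe 1 was 0.59 above sham on the log2 scale (95% interval 0.24 to 0.95, limma adjusted p = 0.0114), a 1.51-fold difference below the fold threshold. Probes 2, 3 and 4 gave 0.63, 0.46 and 0.17 with limma adjusted p of 0.0192, 0.0479 and 0.228. The lowest day 7 sample lay above the highest sham sample with each of the 4 probes, but barely with probe 4 (11.23 beside 11.21). How many of all probes did the same was not counted. The probes differed in which sham samples were high. Sham samples 1 and 2 averaged 0.38 to 0.47 above samples 3 and 4 with probes 1 to 3, but 0.23 below them with probe 4. On day 1 probes 2, 3 and 4 gave -1.49, -1.59 and -1.71, and from day 1 to day 7 they gave 2.12, 2.05 and 1.88.

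THBD, the thrombin receptor of endothelium, moved late. Its log2 signal was 13.13, 13.07, 13.03 and 13.05 in sham samples 1 to 4, 12.92 and 12.94 on day 1, and 11.77 and 11.85 on day 7. The sham samples were close together, both day 1 samples lay just below them, and both day 7 samples lay more than 1 log2 unit below all others. Group means were 13.07 ± 0.04 (SD, n = 4), 12.93 ± 0.02 (SD, n = 2) and 11.81 ± 0.05 (SD, n = 2).

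On day 1 THBD differed from sham by -0.14 on the log2 scale (95% interval -0.34 to 0.06, limma adjusted p = 0.164). With scaling to the 75th percentile this difference turned to 0.094 (limma adjusted p = 0.347), so that no direction is given for day 1. On day 7 THBD fell by 1.26 against sham (SE 0.08, limma adjusted p = 1.81e-05), a 2.39-fold decrease, and it dropped by 1.12 against day 1 (SE 0.10, limma adjusted p = 6.68e-05). Before normalization the median THBD signal was 7973 in sham, 5003 on day 1 and 5772 on day 7. The day 7 arrays were brighter throughout, with a 75th percentile signal of 2375 to 2753 beside 862 to 1020 on day 1. The drop against day 1 thus appears only after the arrays are brought to one scale. Within the 3 scans, which are not independent repeats, THBD on day 7 against day 1 was -1.13, -1.11 and -1.12. No call of F3, TFPI or THBD on day 7 against day 1 held when day 1 and day 7 were each taken as 1 sample and sham as 2, and under that count limma called none of 35718 probes in this comparison (12222 had an unadjusted p below 0.05). The day 7 fall of THBD against sham then had a limma adjusted p of 0.0834.

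The THBD probe was printed 5 times across the array, and each spot gave the late fall. The differences from sham on day 7 were -1.19 to -1.30 over the 5 spots and those on day 1 were -0.03 to -0.23. On single arrays the 5 spots spread by an SD of 0.04 to 0.18. One of the spots was called non-uniform on 3 day 7 arrays of one position and was left out there. These spreads are technical and do not measure the difference between samples.

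The change of F3 relative to the other genes was taken within each sample, as the log2 signal of F3 probe 1 minus that of the brightest probe of TFPI or of THBD. Since probes differ in how they hybridize, only changes of this difference between groups are given, relative to the sham mean. F3 minus TFPI was 0.27, 0.27, -0.47 and -0.07 in sham samples 1 to 4, -0.88 and -0.96 on day 1, and -1.28 and -1.08 on day 7. Both graft groups lay below every sham sample. The mean change was -0.92 on day 1 and -1.18 on day 7, each with an exact two-sided permutation p = 0.0667 (adjusted over 6 relations, p = 0.133), the smallest that 15 relabellings allow. Between the graft groups it was -0.26 (exact permutation p = 0.333, adjusted p = 0.333, the smallest that 6 relabellings allow).

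F3 minus THBD went in both directions. Relative to the sham mean it was 0.42, 0.43, -0.56 and -0.29 in sham samples 1 to 4, -2.26 and -2.32 on day 1, and 0.61 and 0.74 on day 7. Day 1 lay below and day 7 above all sham samples. The mean change was -2.29 on day 1 (exact permutation p = 0.0667, adjusted p = 0.133) and 0.68 on day 7 (exact permutation p = 0.133, adjusted p = 0.2). From day 1 to day 7 the change was 2.97 (exact permutation p = 0.333, adjusted p = 0.333), and this design cannot reach p = 0.05 in any of the 6 relations.

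**Figure D3:**
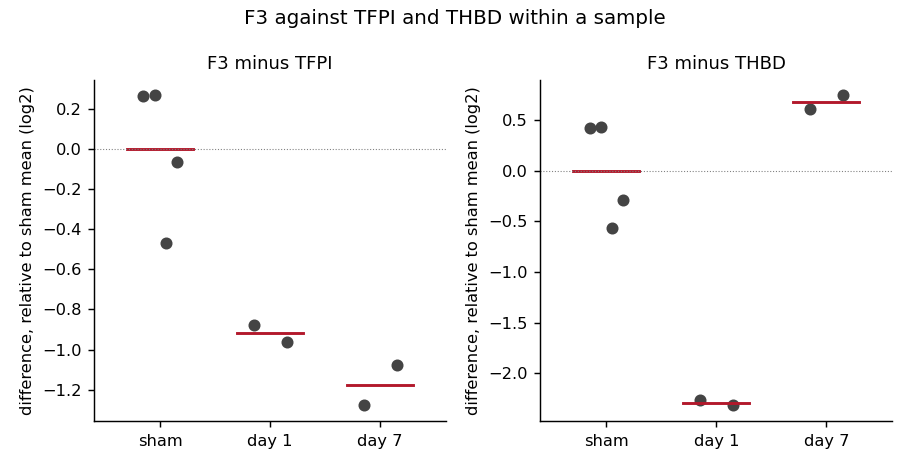
Log2 signal of F3 minus that of TFPI (left) and minus that of THBD (right) within each sample, with the sham mean set to 0. Points are samples and red lines group means. Day 7 differs from sham by -1.18 for F3 minus TFPI and by 0.68 for F3 minus THBD.

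The other genes of haemostasis were taken from fixed lists, each gene by its brightest tested probe. Most listed genes had no probe that could be named, including VWF, PLAUR, PROCR and TFPI2, and these are not analysed here. Of 17 coagulation factors and thrombin receptors, 4 were tested. None of the 4 was called on day 1 (median log2 fold change 0.20), and 1 was called lower on day 7 against sham (median -0.41) and on day 7 against day 1 (median -0.37). With scaling to the 75th percentile the medians were 0.91, -0.69 and -1.47, and 3 were called lower on day 7 against day 1. The gene called was FGG, the gamma chain of fibrinogen, which fell by 1.03 on the log2 scale (SE 0.20, limma adjusted p = 0.00357) and dropped by 1.38 from day 1 to day 7. With normexp background correction FGG was below the fold threshold, at -0.27 on day 7 against sham and -0.39 against day 1, and without day 7 sample 1, sham 3 or sham 4 its day 7 value against sham was -0.97, -0.95 or -0.94. F8, F9 and F10, the clotting factors VIII, IX and X, were called in no comparison by their brightest probe. With scaling to the 75th percentile F9 and F10 were called lower on day 7 against day 1, at -1.59 and -1.36. Of the 2 probes of F8, 1 was called lower on day 1 and 1 higher on day 7 against day 1. F10 was well above background on only 4 of 6 day 1 arrays and 2 of 6 day 7 arrays.

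Of 12 anticoagulants, 4 were tested. Both of those called on day 1 and both of those called on day 7 were lower than in sham (medians of the 4 genes -0.91 and -0.65). PROS1, protein S, the cofactor of activated protein C, fell by 2.10 on day 1 (SE 0.31, limma adjusted p = 5.66e-04) and dropped by 3.51 on day 7 (SE 0.31, limma adjusted p = 6.87e-05), and it dropped by 1.41 from day 1 to day 7, a call that was lost without day 7 sample 1 (-1.26, limma adjusted p = 0.0656). PROC, protein C itself, the substrate of the THBD-thrombin complex, read -0.77 on day 1, under the fold threshold, and fell by 1.28 on day 7 (limma adjusted p = 4.01e-04). PROC was a dim probe, at a log2 signal of 6.34 in sham, and with normexp correction its day 7 value was -0.54. From day 1 to day 7 PROC read -0.51, and a called -1.42 with scaling to the 75th percentile. ANXA5, annexin A5, which covers the membrane surface that clotting enzymes need, fell by 1.06 on day 1 with all 4 of its probes called, and on day 7 differed from sham by 0.16 (limma adjusted p = 0.201). From day 1 to day 7 ANXA5 rose by 1.22. SERPIND1, heparin cofactor II, read 0.93 on day 1 and -0.94 on day 7 against day 1, both just under the fold threshold, and 1 of its 2 probes was called lower in the latter. With scaling to the 75th percentile these values were 1.56 and -1.84 and both were called. The day 1 value was also called without sham 4 (1.01), and the value against day 1 without day 7 sample 2 (-1.07).

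Of 11 fibrinolysis genes, 5 were tested. On day 1 against sham 2 were called higher and 2 lower (median 0.64), on day 7 against sham 2 were higher and none lower (median 0.74), and from day 1 to day 7 3 were higher and 2 lower (median 1.18). With scaling to the 75th percentile none was lower on day 1, 3 were higher on day 7 against sham and 2 were higher from day 1 to day 7. SERPINB2, the plasminogen activator inhibitor of macrophages, rose by 4.20 on day 1 (SE 0.11, limma adjusted p = 2.19e-07) and was 2.17 above sham on day 7 (limma adjusted p = 6.01e-06). SERPINF2, the plasmin inhibitor antiplasmin, rose by 1.94 on day 1 with all 6 of its probes called.

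PLAT, the tissue plasminogen activator of endothelium, fell by 1.31 on day 1 and rose by 1.48 from day 1 to day 7. Both PLAT values fell under the fold threshold with scaling to the 75th percentile (-0.60 and 0.58) and with normexp correction (-0.48 and 0.52). S100A10, a receptor for plasminogen, fell by 1.19 on day 1 and rose by 1.55 from day 1 to day 7 with all 5 of its probes called, and with scaling to the 75th percentile its day 1 value was -0.88. PLAU, the urokinase-type activator, was 1.82 above sham on day 7 (SE 0.33, limma adjusted p = 0.00251) and read 0.64 on day 1 (limma adjusted p = 0.116), which became a called 1.11 without sham 3 and 4. One of the 3 PLAU probes was called lower on day 1, so that its probes disagreed there. From day 1 to day 7 PLAU rose by 1.18 (limma adjusted p = 0.0296). That call was lost when any 1 graft sample was left out, with values of 1.03 to 1.33.

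Of 11 platelet and endothelial genes of haemostasis, 3 were tested. ITGA2B and ITGB3, which together form the fibrinogen receptor of platelets, rose by 4.29 and 2.69 on day 1 (limma adjusted p = 1.90e-07 and 7.83e-07) and on day 7 differed from sham by -0.60 and 0.18. Of the 2 ITGA2B probes, 1 was called lower on day 7 against sham. NOS3, the endothelial nitric oxide synthase, fell by 1.31 on day 1 (limma adjusted p = 3.29e-05) and dropped by 2.95 on day 7 (limma adjusted p = 1.61e-06). The list median was 2.69 on day 1 and -0.60 on day 7 against sham.

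Of 11 genes listed as inducers of F3 or THBD transcription or as cytokines acting on them, 5 were tested. TNF and IL1B are cytokines known to raise F3 and to lower THBD in cultured endothelium. TNF, IL1B and IL6 were higher than in sham on day 1 by 7.93, 6.82 and 5.32 and on day 7 by 6.27, 6.73 and 3.84, and all their probes were called. F3 itself was low on day 1, and any relation of these transcripts to F3 or THBD was not tested. IL6 varied widely in sham (SD 2.24, n = 4). Its day 7 call against sham was lost without sham 3 (3.20, limma adjusted p = 0.0572) or sham 4 (3.19, limma adjusted p = 0.0574), without either day 7 sample (limma adjusted p = 0.123 and 0.144) and with the compared groups alone (limma adjusted p = 0.0560). FOS and JUN, the subunits of the transcription factor AP-1, had both fallen by day 7, with log2 fold changes of -3.14 and -1.33 against sham, and FOS fell by 2.09 on day 1 while JUN read -0.15. Under normexp correction the day 7 value of JUN was -0.52, under the fold threshold.

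**Figure D4:**
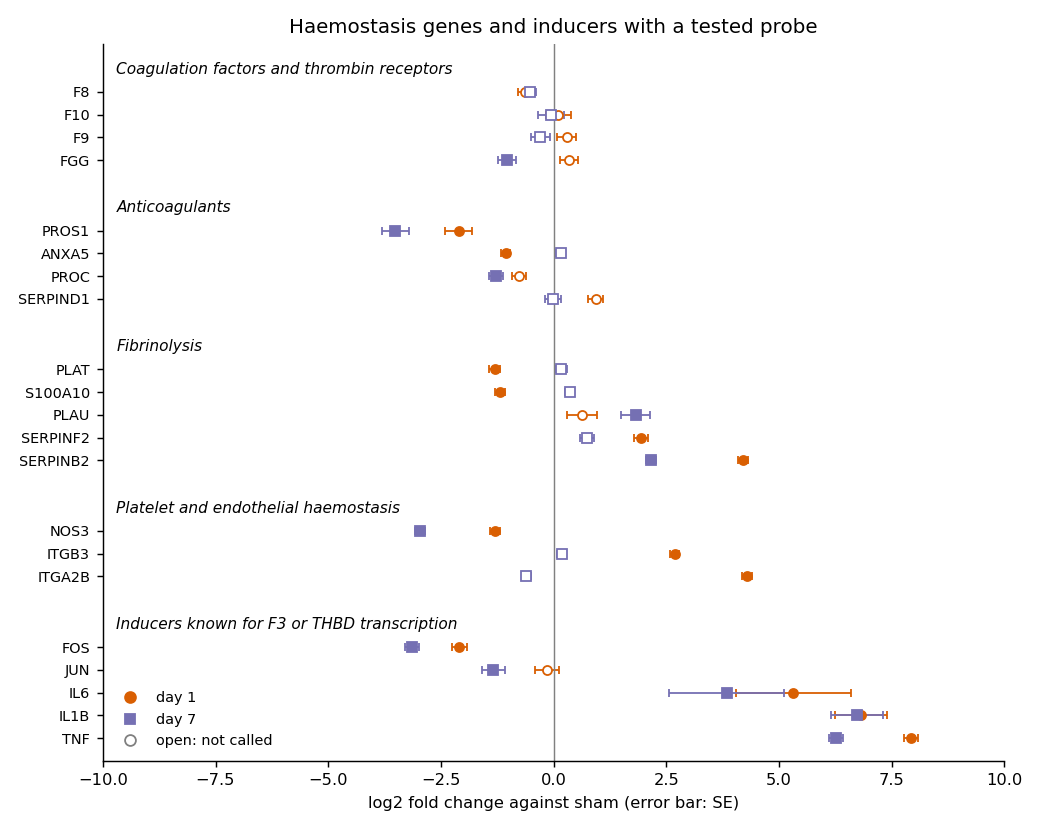
Log2 fold change against sham (horizontal axis, error bars SE) of the listed haemostasis genes and inducers with a tested probe, on day 1 (orange circles) and day 7 (violet squares). Filled symbols were called and open symbols were not. PROS1 and NOS3 were called lower on both days, PLAT and ANXA5 were called lower on day 1 and not on day 7, and SERPINB2, TNF, IL1B and IL6 were called higher on both days.

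Markers of the cell types of the wall moved beside the 3 genes, and in bulk tissue fewer cells of a type and less RNA per cell cannot be told apart. Of 10 endothelial markers 2 were tested, NOS3 and KDR. NOS3 averaged a log2 signal of 8.87 in sham, 7.57 on day 1 and 5.92 on day 7. KDR, a receptor for vascular endothelial growth factor, had 1 of its 6 probes tested. That probe was well above background on all 4 sham arrays and on no graft array. It thus passed the filter only through sham. A lower value in grafts was built in by this and is not taken as support. KDR was at least 2.05-fold lower on day 1 and at least 1.99-fold lower on day 7, the latter under the fold threshold. With normexp correction KDR gave -0.32 and -0.34 on day 1 and day 7 and NOS3 -0.83 on day 1, all under the fold threshold. Their summed linear signal was 458 to 553 in sham, 192 to 196 on day 1 and 62.2 to 65.5 on day 7. THBD and TFPI are both known from endothelium, and the part of endothelial content in their values was not tested.

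Of 10 smooth muscle markers 3 were tested. ACTA2, smooth muscle actin, fell by 5.14 on day 1 and on day 7 differed from sham by -0.49 (limma adjusted p = 0.0814). MYH11, the smooth muscle myosin, fell by 5.33 on day 1 and dropped by 6.49 on day 7 against sham. DES, desmin, read -1.85 on day 1 (limma adjusted p = 0.0665) and fell by 3.79 on day 7. Its day 1 value was called without sham 3 (-2.24), without sham 4 (-2.25) and without both (-3.04). The summed signal of the 3 genes was 314738 to 527159 in sham, 11698 to 12124 on day 1 and 197852 to 234417 on day 7. ACTA2, like F3, was lowest on day 1, whereas MYH11 and DES had their lowest mean on day 7, at 10.18 beside 11.34 on day 1 for MYH11 and 7.69 beside 9.64 for DES. The part of smooth muscle content in the values of F3 was not tested.

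Of 6 fibroblast markers 3 were tested, and all 3 fell on day 1. COL1A2, a collagen I chain, fell by 2.72 and LUM, lumican, fell by 3.50, and on day 7 they differed from sham by -0.002 and -0.16. DCN, decorin, fell by 2.87 on day 1 and dropped by 1.89 on day 7 against sham, where 2 of its 6 probes were called. With scaling to the 75th percentile that value was -0.99, under the fold threshold. The summed signal was 1008853 to 1063390 in sham, 139192 to 139415 on day 1 and 809655 to 832704 on day 7. These values moved with F3 and TFPI on day 1, and their part in them was not tested.

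Blood cell markers moved the other way. The 3 tested of 11 monocyte and macrophage markers, CD14, MSR1 and MMP12, rose on day 1 by 5.56, 6.17 and 4.06. On day 7 they were 4.67, 6.65 and 10.95 above sham. Their summed signal was 1959 to 4396 in sham, 141688 to 144834 on day 1 and 585077 to 611255 on day 7. From day 1 to day 7 only MMP12 was called by its brightest probe (6.89). CD14 read -0.89 and MSR1 0.48, with 1 of the 2 MSR1 probes called higher. On day 7 MMP12 was the brightest of the 3, at a log2 signal of 18.90 beside 15.71 for CD14 and 15.77 for MSR1. All 4 tested of 7 neutrophil markers were higher on day 1 and all 4 fell from day 1 to day 7. Their summed signal was 9639 to 26163 in sham, 677134 to 700588 on day 1 and 123364 to 126111 on day 7. On day 7 against sham S100A8 and S100A9 were called higher (3.24 and 2.66), while CXCR1 (0.61) and CXCR2 (-0.20) were not called. The sum mainly reflects S100A8 and S100A9, which averaged a log2 signal of 18.6 and 18.1 on day 1. CXCR1 and CXCR2 averaged 13.3 and 9.4 there. Of 6 T cell markers 2 were tested: CD4 was called higher on day 1 and CD3E on day 7 (1.81 against sham, and 0.63 and not called with normexp correction), and their summed signal was 56.9 to 65.6, 225 to 250 and 127 to 132 in sham, day 1 and day 7. The only tested one of 5 platelet markers was ITGA2B. The part of blood cells in the values of F3, TFPI and THBD was not tested.

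The named genes most alike to each member were ranked by Pearson's r over the 8 samples among 1971 genes, which share the group structure and the normalization, as a description without a test. For F3 these were TPM1, tropomyosin 1 (r = 0.995), HEBP2 (r = 0.992) and SSPN, sarcospan (r = 0.989). TPM1 averaged 16.1, 11.9 and 15.4 in sham, day 1 and day 7. For TFPI they were RAB5A (r = 0.998), MBOAT1 (r = 0.998) and KLHL12 (r = 0.997), with RAB5A at 12.1, 11.2 and 12.5. For THBD they were PODXL, podocalyxin (r = 0.998), MECOM (r = 0.997) and ITGB8 (r = 0.991). PODXL, a sialomucin of endothelial and other cells, averaged 16.7, 15.8 and 10.4, a far larger fall by day 7 than that of THBD.

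**Figure D5:**
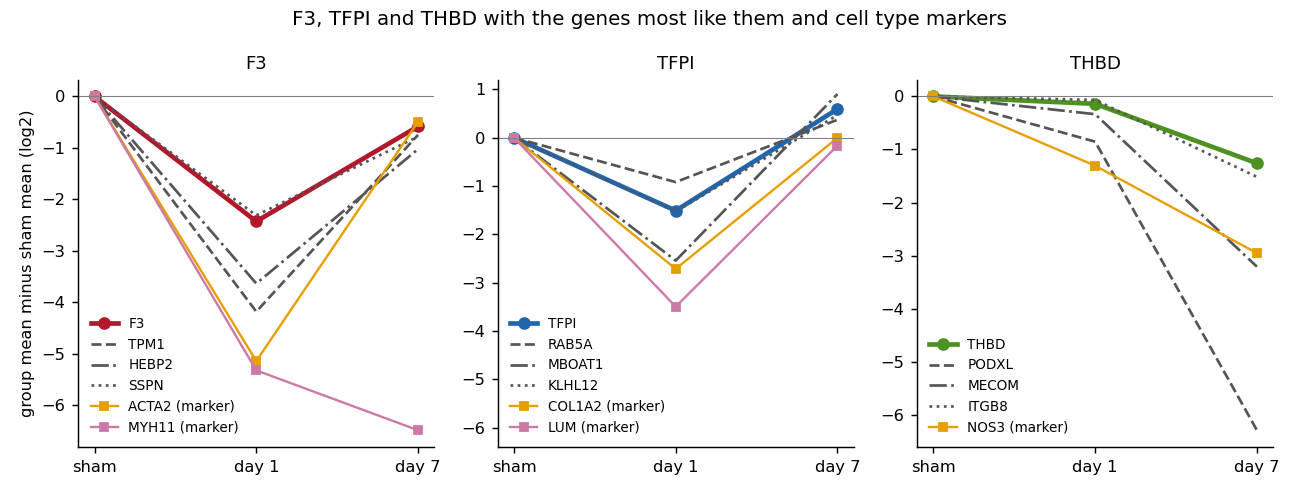
Group means relative to the sham mean (vertical axis, log2) of F3, TFPI and THBD by their brightest probe, of the 3 named genes most alike to each over 8 samples (grey) and of cell type markers chosen after their values were seen (orange and pink). ACTA2 followed F3 down on day 1 and back on day 7 while MYH11 did not return, and NOS3 and THBD were lowest on day 7. The other tested markers are not drawn. Among them are DES and DCN, which were called lower on day 7 against sham (-3.79 and -1.89).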

How the data were processed

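Labelled RNA (Cy3) was measured on one-colour rabbit arrays of Agilent. The deposited intensity of each spot is the background-subtracted signal written by Feature Extraction (version 9.1 per the labels), and the authors also deposited log2 values of 33670 probes, the output of quantile normalization and filtering in GeneSpring. The oligonucleotide sequences and genome positions of the probes were not used here.

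From the intensities, spots called outliers were set missing, log2 signals were quantile-normalized, spots of one probe were averaged, and a probe was kept where all arrays of 1 or more groups read it well above background. Probes were named through RefSeq accessions (3368 probes; assembly mOryCun1.1, for names only) or through the gene identifiers of the paper's supplement (2816 probes). Arrays of a group whose pairwise difference over probes printed 5 times was no larger than the spread between spots (variance ratio of at most 1) were averaged. The ratio was 0.05 to 0.55 for arrays of one position and 1.68 or more for all other pairs. This measure was chosen after seeing the data. One fit over all 3 groups used lmFit and eBayes of limma 3.58.1 (R 4.3.3, data.table version 1.17.8, jsonlite 2.0.0) with Benjamini-Hochberg adjustment over all tested probes, and p-values are two-sided. On simulated data it recovered 95 of 100 probes changed by 3 on the log2 scale and 67 of 100 changed by 1.5 for day 1 against sham, with 4 false calls among 35716 probes. For day 7 against sham it recovered 95 and 69 with 6 false calls, and for day 7 against day 1 it recovered 90 and 62 with 10 false calls. Only 100 probes of each size were changed there, whereas 32.9% to 49.8% of all probes were called in the data. These counts therefore may not carry over to the data. Figures were drawn with matplotlib 3.10.9 and pandas 2.3.3 in Python 3.11.15.

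The members and all gene lists (coagulation, anticoagulants, fibrinolysis, platelet and endothelial haemostasis, inducers, and markers of endothelium, smooth muscle, fibroblasts, monocytes and macrophages, neutrophils, T cells and platelets) were chosen with earlier results of these data known. Genes named from a list were those called, at most the 5 with the largest change per list and comparison, and preset genes of fibrinolysis and anticoagulation. Other list genes named here were named after their values were seen. Alternatives were separate arrays, other array averaging, 75th percentile scaling, the authors' log2 values, normexp with an offset of 50, other filters and probe choices, blocks for scan and replicate number, and each sample left out. Other averaging of the arrays and the omission of sham pairs were added after seeing the data.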

Additional observations from a re-analysis of the deposited data

Results flagged for a closer look

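The effect of grafting on each of the 3 genes differed between day 1 and day 7, by the test of the difference itself, which is day 7 against day 1 because both share the sham group. The difference was 1.85 on the log2 scale for F3 (limma adjusted p = 0.00406), 2.10 for TFPI (limma adjusted p = 5.61e-05) and -1.12 for THBD (limma adjusted p = 6.68e-05). Each rested on 2 day 1 and 2 day 7 samples, and 40.0% of all tested probes were called in this comparison.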

How the results depend on the processing

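Of 364 values of the main results under alternative settings, 350 kept their direction and their side of the threshold, or, without a test, moved by less than the spread between samples. With day 1 and day 7 taken as 1 sample each and sham as 2, chosen after seeing the data, calls were lost for F3 day 7 against day 1 (1.85, limma adjusted p = 0.140), TFPI day 7 against day 1 (2.10, limma adjusted p = 0.0721), THBD day 7 against sham (-1.26, limma adjusted p = 0.0834) and THBD day 7 against day 1 (-1.12, limma adjusted p = 0.117). The lone samples were then assumed to vary like sham, and 0 member probes were called on day 7 against sham and 0 on day 7 against day 1. Under that count limma called 0 of 35718 probes on day 7 against day 1 (12222 at an unadjusted p below 0.05) and 3271 on day 7 against sham, in place of 14280 and 11756. Without sham samples 3 and 4, also chosen after seeing the data, F3 was called on day 7 against sham (-1.04), and 2 member probes were called there in place of 1.

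Scaling to the 75th percentile turned THBD day 1 against sham to 0.094. It gave -0.55 and -0.81 for F3 minus TFPI on day 1 and on day 7 against sham, and 3.07 for F3 minus THBD on day 7 against day 1. Normexp correction gave -0.12 and 2.83 for F3 minus TFPI and F3 minus THBD on day 7 against day 1, and called 10458, 6918 and 7324 probes in place of 17816, 11756 and 14280. With 1 row per gene, 9828, 6031 and 8020 genes were called, and with the mean of a gene's probes 9829, 6038 and 7955. The cause of these shifts was not tested, apart from fewer rows in the last 2. Leaving out single samples gave -2.63 to -2.27 for F3, -1.59 to -1.44 for TFPI and -0.15 to -0.12 for THBD on day 1 against sham. The ranges on day 7 were -0.78 to -0.42, 0.51 to 0.67 and -1.30 to -1.22 with sham as reference, and no call changed.

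No pairing by replicate number was seen, as deviations of same-numbered arrays from their group means correlated at -0.030 to 0.037. With graft arrays that count as 2 samples per group, this check cannot exclude matched samples. With the replicate number as a block over 16 arrays, F3, TFPI and THBD gave -2.43, -1.51 and -0.14 on day 1 against sham, and no call of theirs changed. The precision is limited by 2 samples per graft group, by sham arrays that share no scan with grafts, and by lists of which most genes had no named probe.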
